A study of Homo sapiens with 4 samples.

Results

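Cells commit to copying their DNA at the G1/S switch. D-type cyclins bind the kinases CDK4 and CDK6, and cyclin E binds CDK2, and these complexes phosphorylate the retinoblastoma protein RB. Phosphorylated RB releases E2F transcription factors, which switch on genes for cyclin E, nucleotide synthesis and the replication fork. In ovarian high-grade serous carcinoma this switch is known for frequent gain of the cyclin E1 gene and for loss of RB1 in a subset of tumours.

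Described here are 10 genes of the switch, chosen by their gene symbols out of 62696 gene rows, and all 10 were found once each. They are the D cyclins CCND1, CCND2 and CCND3, the cyclin E2 gene CCNE2, the kinases CDK2, CDK4 and CDK6, the pocket protein gene RB1 and the transcription factor genes E2F1 and E2F3. They were measured by sequencing of total RNA, after depletion of ribosomal RNA, in OVCAR3, an established human ovarian carcinoma cell line. The knockdown group (KD, n = 3 libraries, called Set 1 to Set 3 in the labels) is OVCAR3 with a short hairpin RNA against the pseudogene transcript ANAPC1P2. The wild-type group (WT, n = 1 library) is OVCAR3 without it. Both were grown in the same medium. Nothing says whether the KD sets were separate cultures, clones or hairpins, so the spread behind every p-value is that between 3 libraries and may be no more than technical. No library is labelled as carrying a control hairpin, so effects of a hairpin as such and of this target cannot be told apart. The comparison asks how the transcripts of the G1/S switch differ between these libraries.

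Depth was 42871815 to 56216398 counted reads in KD and 27868718 in WT. The targeted transcript ANAPC1P2 is listed under 2 gene identifiers: 1 had no read anywhere, and the other had 0, 11 and 8 reads in KD 1, 2 and 3 and 14 in WT, too few to show a knockdown at this depth. All 14 markers of serous ovarian carcinoma had reads in every library, with 9 called higher and 3 lower in KD (6 and 6 with equal totals). The lineage factor PAX8 stood at 18322 to 21361 normalized counts in KD and 62685 in WT. MUC16, the CA125 antigen gene and the highest of the list, was 15.9-fold lower in KD. The library labelled WT also held 14866 normalized counts over 7 erythroid markers, mostly HBB, against 1.55 to 3.79 in KD. It held 1057 over 12 leukocyte markers against 108 to 151. HBB, HBA1, HBA2, HBD and SLC4A1 of the erythroid and LYZ, FCGR3B, CD2, CD3D, MS4A1 and ITGAM of the leukocyte markers had no read in any KD library. Whether the WT RNA came only from OVCAR3 cells was not tested, and each difference below compares the libraries as labelled. In bulk RNA, fewer cells of a type and less RNA per cell cannot be told apart.

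Of the 10 genes, 8 were higher in KD, 1 (CCND2) was lower, and CDK6 did not pass the test. Calls are from limma on log2(normalized count + 1), with Benjamini-Hochberg adjustment over 23344 genes and a threshold of 0.05. Calls were common: 31.4% of all genes tested were called higher and 36.3% lower, together 67.7%. Among protein-coding genes 45.9% were higher and 24.7% lower, together 70.6%. The median log2 difference was 1.07 over the 10 genes, -0.28 over all genes tested and 0.28 over protein-coding ones. All 3 KD libraries were above WT for 9 of the 10, as they were for 40.0% of all genes tested and 55.7% of protein-coding ones. For CCND2 they were all below WT, as for 52.2% and 36.7%. With these shares as background, 8 higher calls of 10 are described here without being called particular to the switch.

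The scaling between libraries sets how these differences read. With the deposited factors, WT sums to fewer normalized counts than any KD library. With equal library totals the median of all genes moved from -0.28 to -0.84, and 20.3% of genes were then called higher and 53.6% lower. Of all calls, 46.4% were higher with the deposited scaling, 27.5% with equal totals and 56.9% with median-of-ratios factors. With equal totals 7 of the 10 genes were called higher and 2 lower, CDK6 joining CCND2, and RB1 lost its call. The ratios between genes given below were taken within a library and do not depend on this choice.

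**Figure D1:**
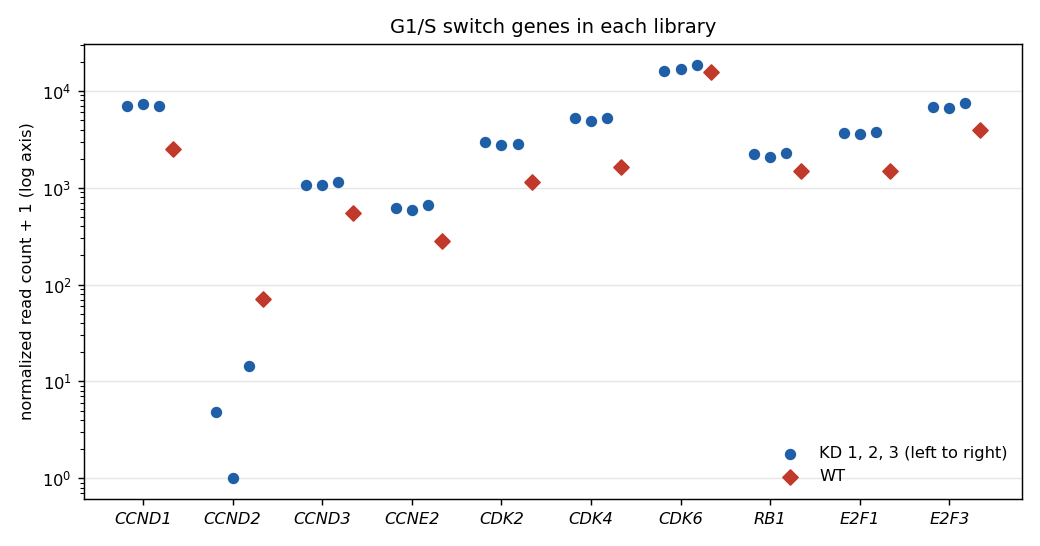
Normalized read counts plus 1 on a log axis for each of the 10 genes, with the 3 KD libraries as circles and the WT library as a diamond. WT lies below every KD circle for 9 genes, by little for CDK6 (below WT as a share of reads), and above all of them for CCND2, which has 0 counts in KD 2.

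The D cyclins carry growth signals to the cell cycle. CCND1, which encodes cyclin D1, had 7007, 7304 and 7015 normalized counts in KD 1, 2 and 3 and 2528 in WT. The KD libraries lay within a few percent of each other and all far above WT. The KD mean of 7109 ± 169 (SD, n = 3) was 2.81-fold the WT value, with a log2 difference of 1.49 ± 0.09 (SE, limma adjusted p = 7.26e-05). CCND1 lies on chromosome 11 (69641087 to 69654474 on the plus strand, GENCODE 29 on GRCh38).

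CCND3, the cyclin D3 gene (chromosome 6, 41934933 to 42050357, minus strand), had 1075, 1075 and 1137 normalized counts in KD and 552 in WT. Its KD values were close together and all above WT. It was 1.99-fold higher in KD, with a log2 difference of 0.99 ± 0.11 (limma adjusted p = 4.22e-04). The ratio of CCND1 to CCND3 normalized counts was 6.17 to 6.79 in KD and 4.58 in WT.

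CCND2, the cyclin D2 gene (chromosome 12, 4273772 to 4305350, plus strand), was near the limit of detection in KD. It had 4, 0 and 12 reads in KD 1, 2 and 3, or 3.79, 0 and 13.3 normalized counts, and 63 reads in WT, or 69.97 normalized counts. The 0 reads of KD 2 allow up to 2.33 normalized counts, counting error only. All KD libraries were below WT, but KD 2 and KD 3 differed by more than counting error, since the exact 95% Poisson interval of KD 3 (6.89 to 23.3) lies above that limit. WT was 12.3-fold above the KD mean. An exact 95% counting interval of the fold from pooled KD reads was 8.09 to 26.3. It is not centred on the fold of means and leaves out the difference between KD 2 and KD 3. The fold of means, with the pooled interval in brackets, was 36.9 (15.2 to 155.0) without KD 3. It was 8.17 (4.88 to 15.9) without KD 2 and 10.5 (6.81 to 26.0) without KD 1.

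On the log2 scale CCND2 differed by -4.12 ± 1.39 (limma adjusted p = 0.0369). The call was lost without KD 1 (0.0504), with a pseudocount of 0.5 (0.0605) and in DESeq2 (0.27), but edgeR kept it (0.00238). CCND2 passed the filter on low values through WT alone. Markers of other cell types were looked at beside it. Of the tested erythroid and leukocyte markers, 5 of 5 and 8 of 8 were lower in KD, but the erythroid markers and several leukocyte markers, LYZ, FCGR3B and CD3E among them, also passed the filter only through WT. Lower as well were 4 of 10 fibroblast markers (summed level 2874 to 3704 in KD and 3342 in WT, mostly FBLN1) and 1 of 6 endothelial markers (936 to 1156 and 1325), shares to be read beside the 36.3% of all genes called lower. Of 10 neural and glial markers 6 were lower and 2 higher (summed level 5645 to 6447 and 6337), with NEUROD6 at 0 in KD and MOG at 0 everywhere. COL3A1 was at 0 in KD and DCN at 0 in WT. The part of other cells in the CCND2 reads of WT was not tested.

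Levels of different genes can be compared per kb of exon. Here this is the merged exon length in GENCODE 29, which counts rarely used exons too. Of the D cyclin counts per kb, CCND1 held 88.6% ± 0.539 (SD, n = 3) in KD and 83.3% in WT. CCND3 held 11.4% ± 0.481 and 15.1%. CCND2 held 0.0484% ± 0.0582 and 1.56%. CCND1 was the main D cyclin transcript in all 4 libraries.

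CCNE2 encodes cyclin E2, a partner of CDK2. It had 625, 583 and 661 normalized counts in KD and 281 in WT, with no overlap. The KD mean was 2.22-fold the WT value (log2 difference 1.14 ± 0.14, limma adjusted p = 6.24e-04). Its paralog CCNE1, outside the 10 genes, stood at 7034 to 8120 in KD and 2545 in WT. CCNE2 lies on chromosome 8 (94879770 to 94896678, minus strand) and shares 1629 exonic bases with INTS8 on the opposite strand. INTS8 was higher as well, at 3305 ± 236 against 1401. How the counting treated strand is not stated in the sources used here, so reads from the shared stretch may have been dropped or assigned to either gene.

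**Figure D2:**
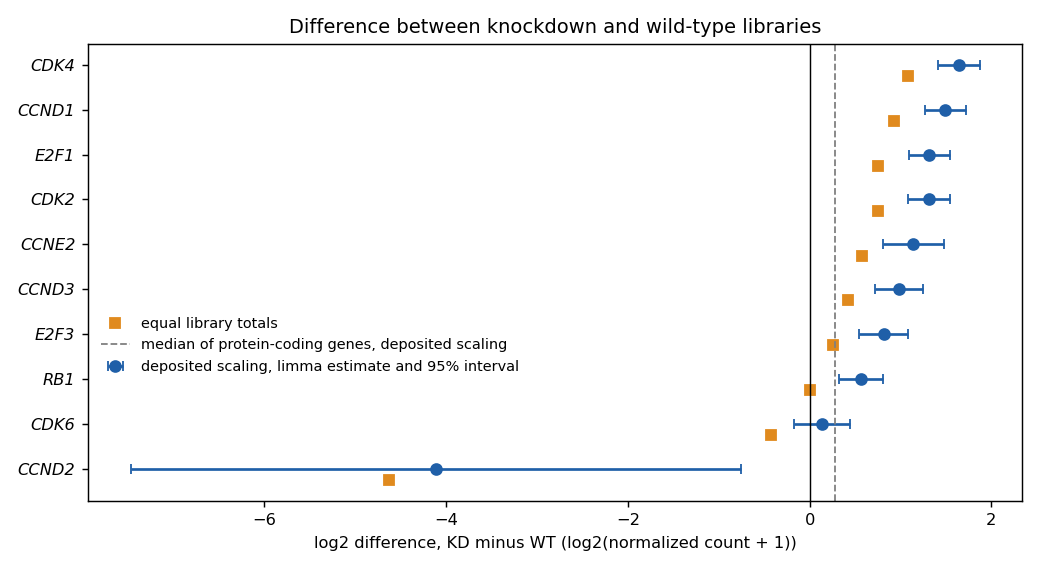
Log2 differences (KD minus WT) of the 10 genes with limma's 95% intervals (circles), and the estimates with equal library totals (squares). The dashed line is the median of protein-coding genes. With equal totals every estimate is lower, RB1 falls to 0.0047 and CDK6 to -0.43.

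The kinases CDK4 and CDK6 share the D cyclins as partners and RB as substrate. CDK4 (chromosome 12, 57747727 to 57756013, minus strand) had 5254, 4921 and 5212 normalized counts in KD and 1638 in WT. It had the largest rise of the 10 genes, 3.13-fold (log2 difference 1.65 ± 0.10, limma adjusted p = 6.71e-05). It was 1.08 higher with equal totals (adjusted p = 2.05e-04).

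CDK6 (chromosome 7, 92604921 to 92836594, minus strand) had the most reads of the 10 genes. Its values were 16059, 16871 and 18707 in KD and 15616 in WT, so the lowest KD library lay only just above WT. The ratio of means was 1.10. The log2 difference was 0.14 ± 0.13, with a 95% interval of -0.17 to 0.45 (limma adjusted p = 0.366). The direction depends on the scaling. As a share of all counted reads CDK6 was lower in KD, at 349.7 to 392.5 RPM (reads scaled to equal totals) against 504.5, with a log2 difference of -0.43 (adjusted p = 8.69e-03). With median-of-ratios factors it was 0.42 higher (adjusted p = 0.0219).

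Within a library, CDK4 counts were 0.28 to 0.33 of CDK6 counts in KD and 0.10 in WT. The log2 ratio was -1.74 ± 0.12 in KD and -3.25 in WT, with WT below every KD library. An exact permutation test with 1 WT library cannot give a p under 0.25, and no model was fitted to the ratios, so they are given as a description. Per kb of exon, CDK4 stood at 1553 to 1658 in KD and at 517 in WT, and CDK6 at 1310 to 1526 and at 1274. CDK4 was above CDK6 in each KD library and below it in WT. Among protein-coding genes ranked per kb, CDK4 moved from percentile 87.9 in WT to 93.7 to 94.2 in KD. CDK6 was at 96.9 in WT and 92.1 to 93.2 in KD.

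CDK2, the kinase of cyclin E and cyclin A, had 2979, 2780 and 2865 normalized counts in KD and 1154 in WT, 2.49-fold higher in KD (log2 difference 1.32 ± 0.10, limma adjusted p = 9.86e-05). It lies on chromosome 12 (55966769 to 55972784, plus strand). Of the counts per kb of the 3 kinase genes, CDK2 held 19.6% ± 0.831 in KD and 14.2% in WT. CDK4 held 43.1% ± 1.21 and 24.8%, and CDK6 held 37.3% ± 2.03 and 61.0%.

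CDK4 shares 1369 exonic bases with TSPAN31 on the opposite strand. TSPAN31 had 1155, 1088 and 1260 normalized counts in KD, against 1343 in WT, and did not pass the test (log2 difference -0.20, limma adjusted p = 0.17). LTO1, which shares 497 exonic bases with CCND1 on the opposite strand, was lower in KD, at 474 ± 3.98 against 854 (log2 difference -0.85, adjusted p = 1.33e-03). The PMEL gene, which shares 89 bases with CDK2, was not called (-0.69, adjusted p = 0.113). None of these 3 neighbours was called higher, but INTS8, which shares exonic bases with CCNE2, was (log2 difference 1.24). Of all genes tested 31.4% were called higher. Among genes that overlap a member without sharing exonic bases, RCBTB2 (in the RB1 span) was higher at 156 ± 13.4 against 84.4 (not called with equal totals, 0.31), and LPAR6 (also RB1) was lower at 61.9 ± 12.8 against 208. NDUFAF6 (CCNE2) was lower at 757 ± 42.4 against 1052, and not called with median-of-ratios scaling (-0.20) or in DESeq2 (-0.29). MARCHF9 (CDK4) was not called at 866 ± 35.3 against 807, and its direction turns with equal totals.

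**Figure D3:**
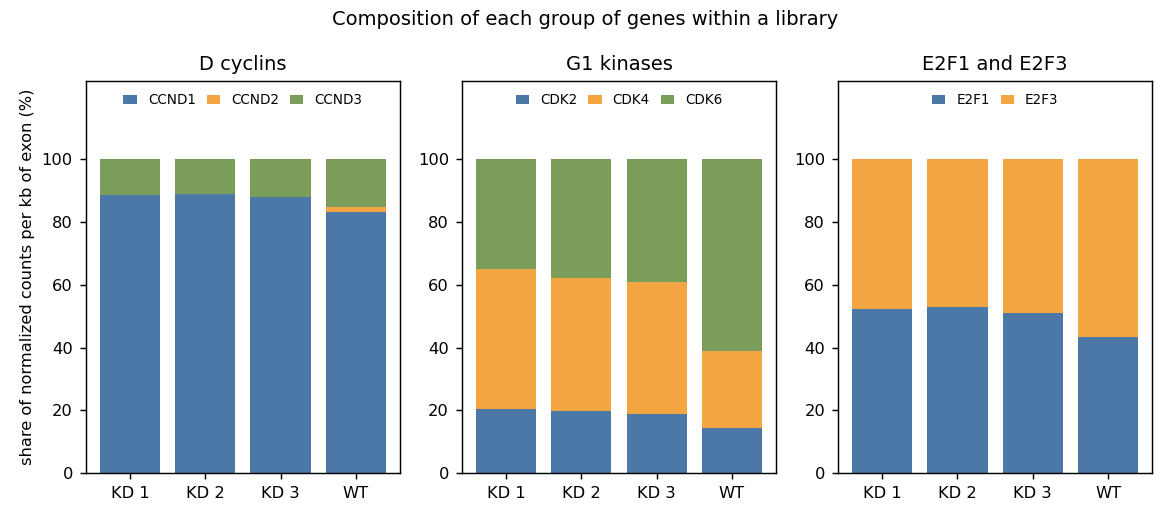
Share of normalized counts per kb of exon taken by each D cyclin gene, each kinase gene and E2F1 and E2F3, as stacked bars for the 3 KD libraries and WT. CDK6 takes 61.0% of the kinase counts in WT and 35.1% to 39.1% in KD.

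RB1 encodes the pocket protein that holds E2F factors inactive. It had 2257, 2097 and 2282 normalized counts in KD and 1492 in WT. All KD libraries were above WT. The ratio was 1.48 and the log2 difference 0.57 ± 0.10 (limma adjusted p = 3.28e-03). Scaled to equal totals, RB1 did not stand apart: it had 47.9 to 49.2 RPM in KD, a range that holds the 48.2 of WT. Equal totals gave RB1 a difference of 0.0047 (limma adjusted p = 0.957). RB1 lies on chromosome 13 (48303726 to 48599436, plus strand).

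E2F1, an activator of S-phase genes, had 3645, 3596 and 3799 normalized counts in KD and 1476 in WT. The groups were far apart and the KD values close together. E2F1 was 2.49-fold higher in KD (log2 difference 1.32 ± 0.09, limma adjusted p = 9.06e-05). It lies on chromosome 20 (33675683 to 33686404, minus strand). RB1 and E2F1 had nearly equal counts in WT, where the ratio of E2F1 to RB1 was 0.99, and in KD it was 1.62, 1.71 and 1.66.

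E2F3, a further activator, had 6877, 6617 and 7566 normalized counts in KD and 3979 in WT. It was 1.76-fold higher (log2 difference 0.82 ± 0.11, limma adjusted p = 1.05e-03). With equal totals the difference was 0.25 (adjusted p = 0.0216). Per kb of exon, E2F1 and E2F3 were of similar level in KD, at 1437 to 1518 and 1281 to 1465, while E2F1 stood at 590 and E2F3 at 770 in WT.

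E2F1 and E2F3 are themselves known targets of E2F factors, so their start regions are shown as reference sequence (RefSeq, GRCh38.p14). Each window is the 250 bases before a start site, 5′ to 3′ on the gene's strand. Capitals mark matches to the E2F motif, searched as TTTCCCGC, TTTCGCGC, TTTGCCGC and TTTGGCGC on both strands. The E2F1 window is chr20:33686386-33686635 on the minus strand. The windows of the distal and the inner start of E2F3 are chr6:20401629-20401878 and chr6:20403364-20403613 on the plus strand. The CDK4 window, chr12:57752311-57752560 on the minus strand, is given for the gene with the largest rise.
E2F1: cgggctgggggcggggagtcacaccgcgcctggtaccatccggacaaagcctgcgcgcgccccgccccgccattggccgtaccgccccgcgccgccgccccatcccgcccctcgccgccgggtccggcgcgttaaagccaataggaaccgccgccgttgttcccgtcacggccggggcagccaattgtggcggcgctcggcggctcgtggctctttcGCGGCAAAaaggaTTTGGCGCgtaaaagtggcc
E2F3 distal start: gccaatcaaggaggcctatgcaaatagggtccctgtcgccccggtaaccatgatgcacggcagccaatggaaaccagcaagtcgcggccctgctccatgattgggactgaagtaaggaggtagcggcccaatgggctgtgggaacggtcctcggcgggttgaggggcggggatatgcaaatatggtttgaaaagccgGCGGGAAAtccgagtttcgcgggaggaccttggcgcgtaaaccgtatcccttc
E2F3 inner start: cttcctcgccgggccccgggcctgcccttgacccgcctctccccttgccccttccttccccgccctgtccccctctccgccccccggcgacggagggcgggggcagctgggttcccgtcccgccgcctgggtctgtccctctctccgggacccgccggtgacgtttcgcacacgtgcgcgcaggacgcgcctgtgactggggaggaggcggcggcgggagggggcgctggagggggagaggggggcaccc
CDK4: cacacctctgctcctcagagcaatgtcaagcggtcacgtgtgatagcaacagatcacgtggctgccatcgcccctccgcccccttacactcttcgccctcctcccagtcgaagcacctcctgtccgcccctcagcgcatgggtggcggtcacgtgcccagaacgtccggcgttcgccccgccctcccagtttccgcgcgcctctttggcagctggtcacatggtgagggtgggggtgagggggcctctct
The E2F1 window held 2 matches that do not overlap, at bases 33 to 26 and 20 to 13 before the start. The distal E2F3 window held 1, at bases 53 to 46. The inner E2F3 window and that of CDK4 held none of these letters. Of 10 windows counted for 6 of the 10 genes, 2 held the motif. The only RB1 window lies before an inner start (48476450), within the RB1 span that begins at 48303726. The region before the beginning of that span was not searched. The cyclin E2 gene, CDK2 and the D cyclin genes CCND1 and CCND2 had no window in this count. Whether their start regions hold the motif was not tested. The motif was found in 2.79% of all 35116 windows. Counted by gene, 928 of 27305 genes (3.40%) had it in at least 1 window. So did 9 of the 22 genes of the E2F target list below that had a window. A match is a description of the letters, not a bound site, and the counts do not separate the starts of E2F3.

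The order of the 10 genes per kb of exon differed between the groups. In KD, CDK4 came first with 1619 ± 57.1 counts per kb, above every library of the others. CCND1 (1451 to 1512), E2F1 (1437 to 1518), CDK6 (1310 to 1526) and E2F3 (1281 to 1465) followed with ranges that overlapped. Then came CDK2 (738 ± 25.7), RB1 (343 ± 15.5), CCND3 (189 ± 6.18), CCNE2 (142 ± 8.95) and CCND2 (0.798 ± 0.961), each below every KD library of the gene before. In WT the order was CDK6 (1274), E2F3 (770), E2F1 (590), CCND1 (523), CDK4 (517), CDK2 (296), RB1 (231), CCND3 (95.1), CCNE2 (63.9) and CCND2 (9.78), and CCND1 and CDK4 differed there by less than their spread in KD. CDK4 was at place 5 in WT and 1 in KD, while the 5 lowest genes held the same places.

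KD libraries were close to each other for these genes, CCND2 apart. The SD of log2 values over the 3 KD libraries had a median of 0.05 over the members other than CCND2. Over 13458 tested genes with a mean of at least 100 it was 0.11, and for CCND2 alone the SD was 1.93. These sets were not matched for level, and whether the smaller spread of the members follows their level was not tested. CCND1 had the lowest value, 0.03, and CDK6 had 0.11. By Euclidean distance of centred log2 values over the 4 libraries, among 11724 protein-coding genes, the profiles most like CDK4 were those of FAM174C (distance 0.02), GRPEL2 (0.03) and PDIK1L (0.03). Those most like CDK6 were SNAPC2 (0.01), HGS (0.02) and NOP9 (0.02). For CCND2 the nearest profiles, COL28A1, TGFBI and CTSE, were 2.02, 2.08 and 2.13 log2 units away, but the genes compared had a mean of at least 100 normalized counts, well above CCND2, so genes at its level were not among them.

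The rest of the pathway was read from 7 lists with 79 genes, all of which were tested. In all, 64 were called higher and 4 lower. With equal totals, 51 were higher and 14 lower. Among protein-coding genes tested 45.9% were higher and 24.7% lower, and among all genes tested 31.4% and 36.3%. With equal totals 20.3% of all genes tested were higher and 53.6% lower. The count of each list below is to be read beside these shares, and none is called particular to its list. Of the 7 other cell cycle cyclins and CDKs 6 were higher, with a median log2 difference of 2.17. The cyclin A genes CCNA1 and CCNA2, which act in meiosis and in S phase, differed by 3.01 and 2.57. Cyclin B1 (CCNB1) and CDK1, the engine of mitosis, differed by 2.17 and 2.18 (limma adjusted p at most 8.70e-05 for the 4 genes). Only CDK3, at 4.45 to 11.7 normalized counts in KD and 16.7 in WT, was not called. The 4 differences were larger than the rise of any of the 10 switch genes, but the 4 were named as the largest of their list. Also called higher there, CCNB2 differed by 2.08 and CCNE1 by 1.59, above and below the 1.65 of CDK4.

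Among 7 CDK inhibitors 5 were higher and 1 lower (median 1.37). CDKN2A, which encodes the CDK4/6 inhibitor p16 and the protein ARF, had 15553 to 18890 normalized counts in KD and 6300 in WT. CDKN1C was higher at a low level, 51.2 ± 10.4 against 4.44. It passed the filter on low values only through KD, so its call as higher was favoured by the filter. CDKN2D, a further CDK4/6 inhibitor, stood at 127 ± 9.61 against 43.3. CDKN1A, the p53 target p21, went the other way, at 28.4, 35.7 and 33.4 in KD and 181 in WT (log2 difference -2.45, limma adjusted p = 1.43e-03).

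The 8 other genes of the E2F family and its DP partners had the smallest median difference of the 7 lists. Of these, 4 were higher and 0 lower, with a median of 0.51. With equal totals 2 were higher and 2 lower, with a median of -0.05. TFDP1, the main DP partner, differed by 1.22, and the repressor-type E2F4 by 1.00. E2F5 and E2F7 were higher by 0.83 and 0.62, and neither was called with equal totals. The counts of this list depend on the scaling: limma called 7 higher with TMM factors and 8 with median-of-ratios factors.

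Of 10 genes for the other pocket proteins, the MuvB core and its partners, 9 were higher (median 1.16). These proteins form the complexes that repress cell cycle genes in quiescence and, with MYBL2 and FOXM1, activate them later. The pocket protein gene RBL1 differed by 1.34, LIN9 by 2.54, LIN52 by 1.38 and MYBL2 by 1.18, while LIN37 was not called at 53.6 to 55.9 normalized counts against 62.2. With equal totals 7 of the list were higher and 1 lower.

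Of 8 genes for CDK activation 7 were higher and 1 lower (median 1.24). CKS2 and CKS1B, small CDK-binding proteins, differed by 2.60 and 2.26, and CKS2 by 4.13 with the trend on exonic length removed. CDC25A, a phosphatase that activates CDKs, stood at 1951 ± 94.4 against 690. Of the CDK-activating kinase, its kinase subunit CDK7 was higher at 954 ± 122 against 264, and its cyclin CCNH was lower at 2891 ± 84.9 against 4108 (log2 difference -0.51, limma adjusted p = 3.75e-03). With median-of-ratios scaling CCNH was not called (-0.23, adjusted p = 0.0722).

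Of 14 genes for turnover of G1 cyclins and of the inhibitor p27, 9 were higher and 2 lower (median 0.58). With equal totals 6 were higher and 6 lower (median 0.02). SKP2, the F-box protein that targets p27, was higher at 9367 ± 405 against 3862, and its scaffold CUL1 at 4899 ± 212 against 1852. FBXO4 and CUL4B differed by 1.57 and 1.02. FBXW7, which targets cyclin E, was slightly lower (-0.28, limma adjusted p = 0.0496). This call was lost when any KD library was left out (0.0782 to 0.0852), and with median-of-ratios scaling the FBXW7 difference was 0.0011. SKP1 was lower by the deposited scaling (-0.37, adjusted p = 0.0124) and was not called with median-of-ratios scaling (-0.09).

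Of 25 targets of E2F, 24 were higher and 0 lower, with a median of 1.15. The replication clamp PCNA and the ribonucleotide reductase subunit RRM1 differed by 2.44 and 2.39, the checkpoint kinase CHEK1 by 1.88 and the helicase subunit MCM6 by 1.80. The polymerase gene POLA1 was not called (0.07). With equal totals 19 were higher and 2 lower (median 0.59). Some of these genes were known to be higher from an earlier reading of these libraries, and the list is no independent evidence of its direction.

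**Figure D4:**
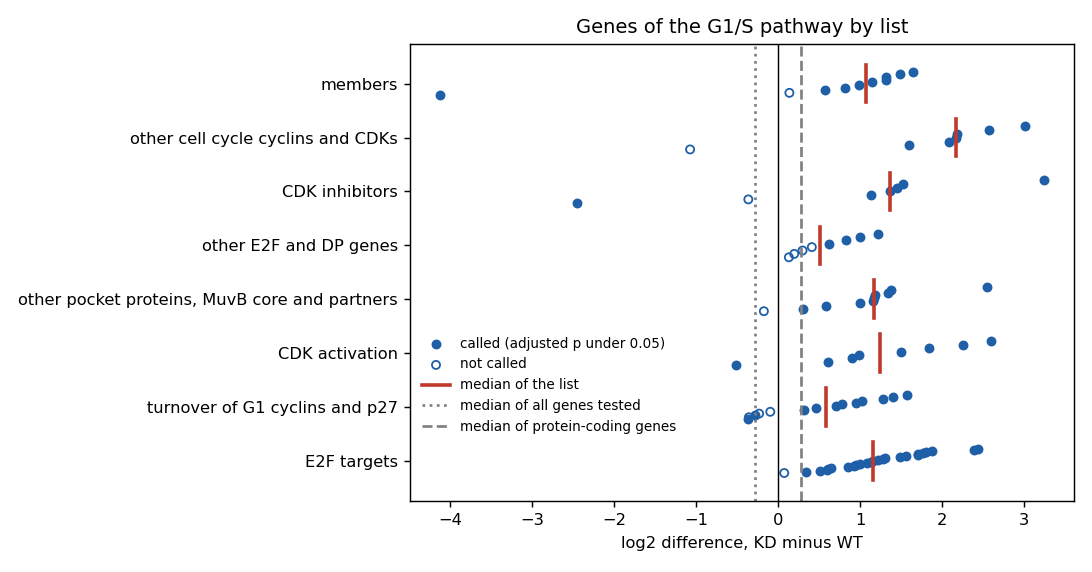
Log2 differences (KD minus WT) of the 10 members and of the genes of 7 pathway lists, filled where called and open where not, with the median of each list as a bar. The medians run from 0.51 for other E2F and DP genes to 2.17 for other cyclins and CDKs, against 0.28 for protein-coding genes (dashed) and -0.28 for all genes tested (dotted).

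Genes inside the members' introns did not follow their hosts. GENCODE 29 places 13 annotated genes inside introns of CCND3, CCNE2, CDK6, E2F3 and RB1 with no exonic overlap with any other gene. Together these had 131, 179 and 100 reads in KD 1, 2 and 3 and 1214 in WT, despite the lower depth of WT. Of the 7 that passed the filter, 6 were called lower in KD and 0 higher (median log2 difference -3.32), while their hosts were higher or not called. Of these 6, RNU6-10P, PPP1R26P1 and PCNPP5 passed the filter on low values only through WT, so they had to differ. With a filter at a mean of 50, 3 were called lower. Across all genes tested that lie inside an intron in this way, 67.3% of 3130 were called lower, with a median of -2.27, and that set was defined after the members' values were seen. The members' share lies near this background.

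E2F3-IT1, an RNA annotated inside an intron of E2F3 on its strand, had 50.2, 66.1 and 47.8 normalized counts in KD and 550 in WT. It was 10.05-fold lower in KD (log2 difference -3.32, limma adjusted p = 1.96e-04), while E2F3 was 1.76-fold higher. With the trend on exonic length removed the E2F3-IT1 difference was -1.55. E2F3-IT1 counts were 0.787% ± 0.19 of E2F3 counts in KD and 13.8% in WT.

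On the opposite strand of E2F3, RN7SL128P and RNU6-141P stood at 11.04 ± 5.32 against 405 and 26.8 ± 9.75 against 197. In RB1 introns, also on the opposite strand, the pseudogenes PPP1R26P1 and PCNPP5 stood at 3.63 ± 2.01 against 62.2 and 7.77 ± 2.31 against 45.5. The snRNA copy RNU6-10P, inside CDK6, stood at 3.06 ± 2.66 against 34.4. Most of these are copies of repeated RNAs or of other genes, so reads may be shared with the copies. All 3 KD libraries were below WT for each of these 6 genes, which were picked as called lower. The same held for 52.2% of all genes tested. With the trend on exonic length removed, 3 of them were called lower. Over all genes, 64.7% of intronic genes on a host's strand and 69.2% of those on the opposite strand were called lower. The source of these reads in WT was not tested.

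**Figure D5:**
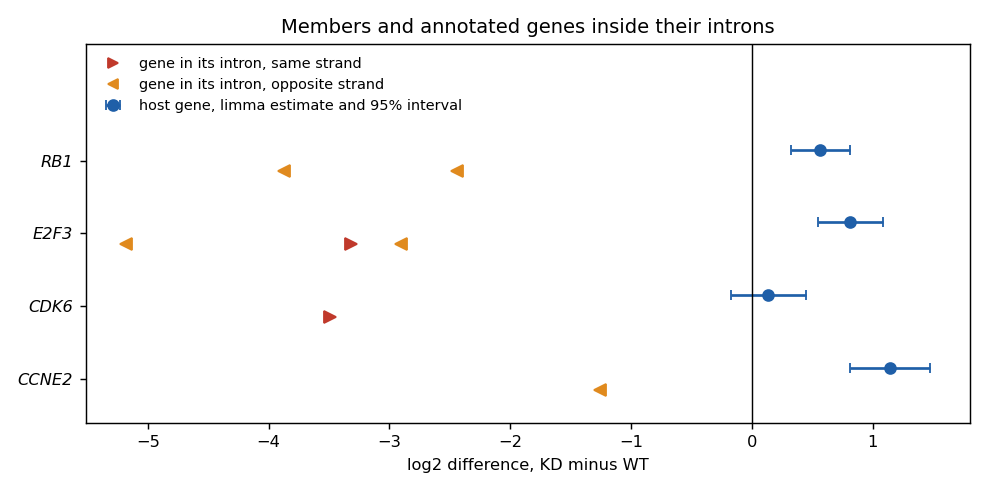
Log2 differences (KD minus WT) of 4 members (circles, with limma's 95% interval) and of the tested genes inside their introns (triangles, pointing right on the host's strand and left on the opposite strand). The 7 intronic genes lie between -5.18 and -1.26, left of their hosts, which lie between 0.14 and 1.14.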

How the data were processed

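Each library has 1 deposited table whose signal column holds gene counts divided by a library factor. STAR 2.7.11b, featureCounts 2.0.6, DESeq2 and the build hg38 are named, per the submitters' processing notes. Annotation release and strand setting: not given in the sources used here. Per the labels' protocols, 100 ng of total RNA was depleted of ribosomal RNA and made into dUTP strand-marked libraries with 13 PCR cycles. In each library 100% of values were whole multiples of 1 step (within 0.001 reads), so whole reads were recovered.

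The main test was limma-trend 3.58.1 in R 4.3.3 on log2(value + 1), two-sided, for genes with a mean of at least 10, so fold changes of low genes are understated. The spread comes from the KD libraries, and the lone WT library is assumed to vary like them. The alternatives, edgeR 4.0.16 and DESeq2 1.42.0 on recovered reads among them, called 16487 and 13849 genes, against 15794 by limma. Scripts were tested on simulated data. Counting intervals and floors (3 reads) cover counting error only, since no molecular identifiers are given. Lengths and positions came from GENCODE 29, where 92.9% of gene identifiers were found.

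The members and gene lists were chosen with earlier results of these data known. Named beside the members are up to 4 called genes per list by size of difference, called genes that go against their list, genes that overlap a member, and the 3 nearest profiles. Other list genes named because a count was small, such as CDK3, LIN37, POLA1 and CCNE1, were chosen after their values were seen.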

Additional observations from a re-analysis of the deposited data

How the results depend on the processing

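No paired analysis was possible because only the knockdown libraries carry set numbers and there is 1 wild-type library. CCND1, CCND3, CCNE2, CDK2, CDK4, E2F1 and E2F3 were called higher under all 15 alternatives. The number of members called lower rested on CCND2 and was 0 with a pseudocount of 0.5, no filter, median-of-ratios scaling, DESeq2 and thinned knockdown reads. It was also 0 with a filter at a mean of 50, where CCND2 was not tested, and 2 with equal totals. Leaving out each KD library in turn gave 0 to 1 members lower, 8 to 8 higher, and 14204 to 15053 genes called among all tested. Among calls, the share higher was 58.3% with that filter, 56.6% in DESeq2, 64.3% with protein-coding genes only and 56.3% with the length trend removed, against 46.4%. Pathway genes called lower went from 4 to 14 with equal totals, 1 with median-of-ratios scaling and 2 in DESeq2. With protein-coding genes only, 10403 genes were called among the fewer tested. Directions turned for CDK6 (-0.43) and MARCHF9 (-0.46) with equal totals, for FBXW7 (0.0011) and TSPAN31 (0.075) with median-of-ratios scaling, and for MARCHF9 (-0.081) and ENSG00000243979 (0.35), a pseudogene in a CCNE2 intron, with the length trend removed. CDK6 was called higher with median-of-ratios scaling, in DESeq2 (0.32) and with the length trend removed (0.34). The causes were not tested. The wild-type library could not be left out, and its lack of a replicate and its depth limit every difference.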
